A study of Mus musculus with 2 samples.

Results

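The numbered CD antigens are cell surface molecules named by a cluster-of-differentiation number, here the mouse genes whose symbol is Cd, a number and at most 1 further letter and number. Probe sets annotated to 1 gene found 76 such genes among the 18193 genes with a single-gene probe set. Cd320, Cd36, Cd68, Cd74 and Cd5l were left out. Members were chosen by symbol, their probe set was chosen by measured brightness (the highest geometric mean of both arrays), and the contrast of classes was chosen with the ratios of these same 2 arrays known. By general knowledge of where each antigen is carried, 51 were classed as leukocyte-restricted and 25 as widely expressed. Cd46 was placed among the widely expressed ones, although in mice it is known mainly from testis.

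Liver RNA was measured on 2 single-colour Affymetrix arrays, 1 for each group. One group of mice received antagomir-122, a modified oligonucleotide against the liver microRNA miR-122, and the other received mm-antagomir-122, its scrambled control. Both groups received a daily 80 mg/kg body weight over 3 days, livers were taken 24 h later, and each array carried cRNA from the pooled RNA of 3 livers. Strain, sex and age of the mice were not given in the sources used here. Each group has 1 pool here, so no test could be run and every ratio describes these 2 pools alone.

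CD numbers group surface molecules by the antibodies that recognise them, so the numbering joins proteins of unrelated structure and function. On leukocytes they serve as antigen receptor subunits, costimulatory and inhibitory receptors, and sensors of microbial products. In liver, Kupffer cells, lymphocytes and passing blood leukocytes carry the restricted antigens, while hepatocytes and endothelial cells share tetraspanins, complement regulators and adhesion molecules with most other cells. In whole-liver RNA, more cells of a type and more RNA per cell cannot be told apart.

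Signals are MAS5 intensities in arbitrary units, and a ratio is log2 of the antagomir-122 signal over the mm-antagomir-122 signal. A floor was set at the 60th percentile of mean log2 signal over the non-control probe sets, a signal of 238. Of the 76 antigens, 33 lay at or above it, 17 leukocyte-restricted and 16 widely expressed, among 10003 genes in all. Just inside the floor were Cd79a (geometric mean signal 241), Cd72 (243) and Cd46 (281), and just outside it were Cd83 (237), Cd207 (231) and Cd37 (228). Hepatocyte markers were bright in both pools, with summed signals of 167377 in the antagomir-122 pool and 168064 in the mm-antagomir-122 pool over 8 genes, as the label liver has it.

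The leukocyte-restricted antigens above the floor were higher in the antagomir-122 pool by a small amount. Of the 17, 16 had a ratio above 0, while 50.3% of all genes above the floor did, and 53.2% of those within the signal range of these antigens. Both signals were above the floor for 15 of the 17, Cd96 with its negative ratio among them. Cd79a and Cd72 passed the floor through the antagomir-122 signal alone, so their positive ratios add no support to this count. With median centring 15 of the 17 lay above 0, against 32.6% of all genes. Scaled on the hybridization controls of the arrays all 17 did, but so did 84.1% of all genes. The median log2 ratio of the 17 as deposited was 0.26, or 1.20-fold, with single ratios from -0.05 to 0.68, and it was above 0 under each of the 4 other scalings tried. The median over all 10003 genes was 0.00 as deposited. The widely expressed antigens had a median of -0.08, which turned to 0.19 when the arrays were scaled on their hybridization controls. These are spiked transcripts, and 17 of their 18 probe sets were lower on the antagomir-122 array, so that scaling adds 0.27 to every ratio. Of the widely expressed antigens, 6 of 16 lay above 0 as deposited, against 49.6% of genes within their signal range. Among these 6, Cd46 passed the floor through the antagomir-122 signal alone. With median centring 3 of the 16 lay above 0, against 32.6% of all genes. The class medians differed by 0.35 on the log2 scale, or 1.27-fold, and this difference was 0.30 with quantile normalization and 0.32 with loess correction. The other 2 scalings add 1 constant to every ratio and so cannot change it.

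**Figure D1:**
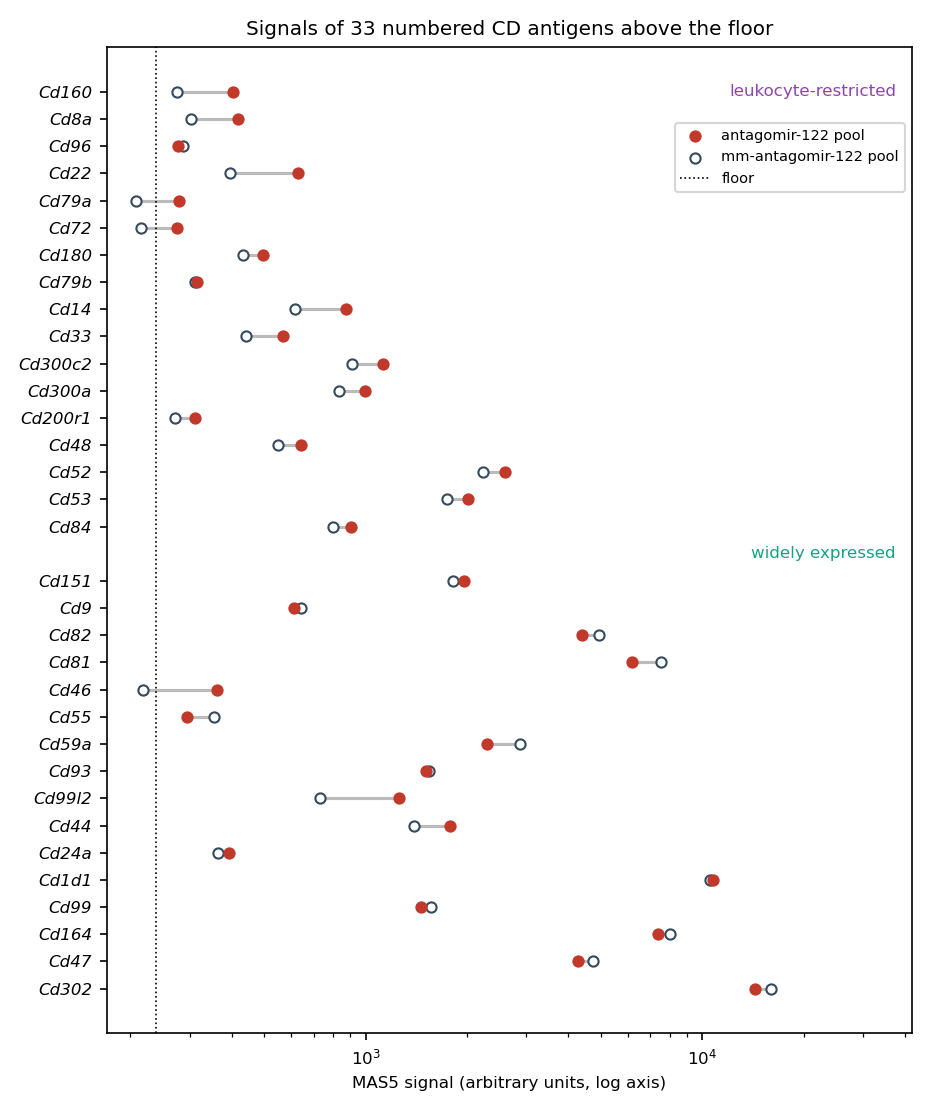
MAS5 signal on a log axis for the 33 antigens above the floor (dotted line, 238), with 1 filled point for the antagomir-122 pool and 1 open point for the mm-antagomir-122 pool. In the upper block the filled point lies to the right for 16 of the 17 leukocyte-restricted antigens, and in the lower block for 6 of the 16 widely expressed ones. Of these 16, 14 lie above 0 when scaled on the hybridization controls, which puts 84.1% of all genes above 0. With median centring 3 do, and 32.6% of all genes. For Cd79a, Cd72 and Cd46 the open point lies under the floor.

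Few single antigens were far from equality. By the 1.5-fold threshold, 3 of the 33 were higher, where 5.12% of all genes above the floor were, and 0 were lower, where 2.62% of all genes were. In either direction the background was 7.74%, so a count of 3 among 33 is near it. The 3 were Cd22, Cd46 and Cd99l2, and only Cd22 is leukocyte-restricted. Cd46 passed the floor through its antagomir-122 signal alone. The SD of log2 ratio for a single probe set was 0.28 over 3860 genes with more than 1 probe set above the floor. It is the SD of the difference between the 2 brightest probe sets of a gene, divided by the square root of 2. Of the 17 leukocyte-restricted antigens, 9 had a ratio no further from 0 than the single-probe-set SD.

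Among B cell antigens all 5 above the floor had positive ratios as deposited. Cd22, an inhibitory lectin of B cells that binds sialic acid, had signals of 630 in the antagomir-122 pool and 394 in the mm-antagomir-122 pool, 1.60-fold higher. Cd79a, a signalling chain of the B cell receptor, had 280 with antagomir-122 and 208 with mm-antagomir-122. Cd72, an inhibitory coreceptor, had 276 with antagomir-122 and 215 with mm-antagomir-122. For both, the mm-antagomir-122 signal was under the floor, so they were at least 1.17-fold and 1.16-fold higher. Cd180, a Toll-like receptor homologue of B cells and macrophages, had 496 with antagomir-122 and 431 with mm-antagomir-122, 1.15-fold higher. Cd79b, the partner chain of Cd79a in the B cell receptor, had 315 with antagomir-122 and 310 with mm-antagomir-122, and its log2 ratio of 0.02 turned below 0 with quantile normalization, loess correction and median centring. The paired chains Cd79a and Cd79b had log2 ratios of 0.43 and 0.02, or 0.23 and 0.02 with signals under the floor set to it. Each rests on 1 probe set above the floor, and the single-probe-set SD was 0.35 among the dimmest genes (588 genes). No difference between these chains is therefore claimed.

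Among T and NK cell antigens 3 were above the floor. Cd160, a receptor of NK cells and cytotoxic T cells, had 403 in the antagomir-122 pool and 274 in the mm-antagomir-122 pool, 1.47-fold higher. Cd8a, the coreceptor chain of cytotoxic T cells, had 418 with antagomir-122 and 303 with mm-antagomir-122, 1.38-fold higher, on a probe set with the suffix _x, which can cross-hybridise. Its other probe sets were below the floor and went both ways, with log2 ratios from -2.47 to 1.03. Cd96, an NK and T cell receptor for nectin-like proteins, was the leukocyte-restricted antigen without a positive ratio, at 277 with antagomir-122 and 286 with mm-antagomir-122. Scaled on the hybridization controls, Cd96 had a log2 ratio of 0.23.

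All 5 myeloid antigens above the floor had positive ratios under each scaling tried, from 0.20 to 0.50 as deposited. Cd14, the lipopolysaccharide coreceptor of monocytes and macrophages, had 872 in the antagomir-122 pool and 618 in the mm-antagomir-122 pool, 1.41-fold higher. Cd33, a sialic acid-binding receptor, had 569 with antagomir-122 and 441 with mm-antagomir-122, 1.29-fold higher. Cd300c2 and Cd300a are myeloid receptors of the immunoglobulin superfamily. Cd300c2 had 1125 with antagomir-122 and 914 with mm-antagomir-122, and Cd300a had 997 with antagomir-122 and 831 with mm-antagomir-122, so their log2 ratios were close (0.30 and 0.26). Cd200r1, an inhibitory receptor for Cd200, had 311 with antagomir-122 and 271 with mm-antagomir-122, 1.15-fold higher.

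The antigens shared by several leukocyte classes lay closest together. The 4 above the floor had log2 ratios from 0.17 to 0.23, with a median of 0.22. Cd52, a short lipid-anchored glycoprotein of lymphocytes and macrophages, had signals of 2600 in the antagomir-122 pool and 2230 in the mm-antagomir-122 pool. Cd53, a tetraspanin confined to leukocytes, had 2018 with antagomir-122 and 1741 with mm-antagomir-122. Cd48, a ligand of the signalling lymphocyte activation family, had 644 with antagomir-122 and 549 with mm-antagomir-122, and its relative Cd84 had 903 with antagomir-122 and 802 with mm-antagomir-122. A second probe set of Cd84 had 236 with antagomir-122 and 248 with mm-antagomir-122, a log2 ratio of -0.07, so its direction depends on the probe set.

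RefSeq promoters of the GRCm38.p6 build, 250 bases before to 50 after a start, were at hand for 25 of the 33 antigens. The motif GAGGAAG, a site type of ETS factors such as PU.1, was sought on both strands (CTTCCTC on the printed strand for the other strand). It was found in 5 of 13 leukocyte-restricted antigens (38.5%) and 2 of 12 widely expressed ones (16.7%), and in 13.6% of all 32851 promoters. Over all antigens with a promoter, above the floor or not, it was found in 9 of 35 leukocyte-restricted (25.7%) and 4 of 18 widely expressed ones (22.2%), so the classes lay much closer there. TATAAA, searched in the same way, was found in 1 of 13 and 1 of 12, and in 13.6% of all promoters. Genes with several starts have more than 1 window, and 15.4% of all genes had the first motif in some window. The letters say nothing of whether a factor binds. For 4 of the 5 the match lay upstream of the start, and these 250 bases are shown, 5′ to 3′ on the gene's strand, with the match in capitals. They are chr4:43454627-43454876 (minus strand) for Cd72, chr7:43533172-43533421 (minus) for Cd33, chr11:114889791-114890040 (plus) for Cd300a and chr3:96829352-96829601 (minus) for Cd160. Matches began 48, 226, 40 and 194 bases before the start, in that order. In Cd53 the match lay just after the start.
Cd72: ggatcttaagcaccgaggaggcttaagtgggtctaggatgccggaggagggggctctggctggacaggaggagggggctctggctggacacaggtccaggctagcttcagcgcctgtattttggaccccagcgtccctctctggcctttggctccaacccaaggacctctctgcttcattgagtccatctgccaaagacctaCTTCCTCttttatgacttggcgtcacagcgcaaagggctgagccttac
Cd33: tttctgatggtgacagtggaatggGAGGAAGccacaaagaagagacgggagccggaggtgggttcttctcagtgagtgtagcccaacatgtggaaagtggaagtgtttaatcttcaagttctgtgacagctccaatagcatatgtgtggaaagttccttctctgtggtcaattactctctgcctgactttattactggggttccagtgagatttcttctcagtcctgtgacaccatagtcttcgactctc
Cd300a: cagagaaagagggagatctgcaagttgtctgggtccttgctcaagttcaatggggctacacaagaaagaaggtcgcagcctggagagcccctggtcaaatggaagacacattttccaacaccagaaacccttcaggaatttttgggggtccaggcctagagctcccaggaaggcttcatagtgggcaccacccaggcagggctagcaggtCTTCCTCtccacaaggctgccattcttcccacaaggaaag
Cd160: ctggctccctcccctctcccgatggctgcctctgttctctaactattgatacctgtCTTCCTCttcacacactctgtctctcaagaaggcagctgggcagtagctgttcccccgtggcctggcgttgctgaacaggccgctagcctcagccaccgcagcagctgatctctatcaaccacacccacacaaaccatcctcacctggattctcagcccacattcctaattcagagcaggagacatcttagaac

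The match sits close to the start in Cd72 and Cd300a and far upstream in Cd33 and Cd160. The log2 ratios were 0.36 for Cd72, 0.37 for Cd33, 0.26 for Cd300a and 0.55 for Cd160. The other antigens above the floor with a match had 0.21 (Cd53), 0.36 (Cd44) and -0.17 (Cd82) on their brightest probe sets as deposited. Another probe set of Cd82 above the floor had 0.29, so the sign of the only negative ratio among these depends on the probe set. Cd22, with the highest ratio of the leukocyte-restricted antigens, had no match in its window.

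**Figure D2:**
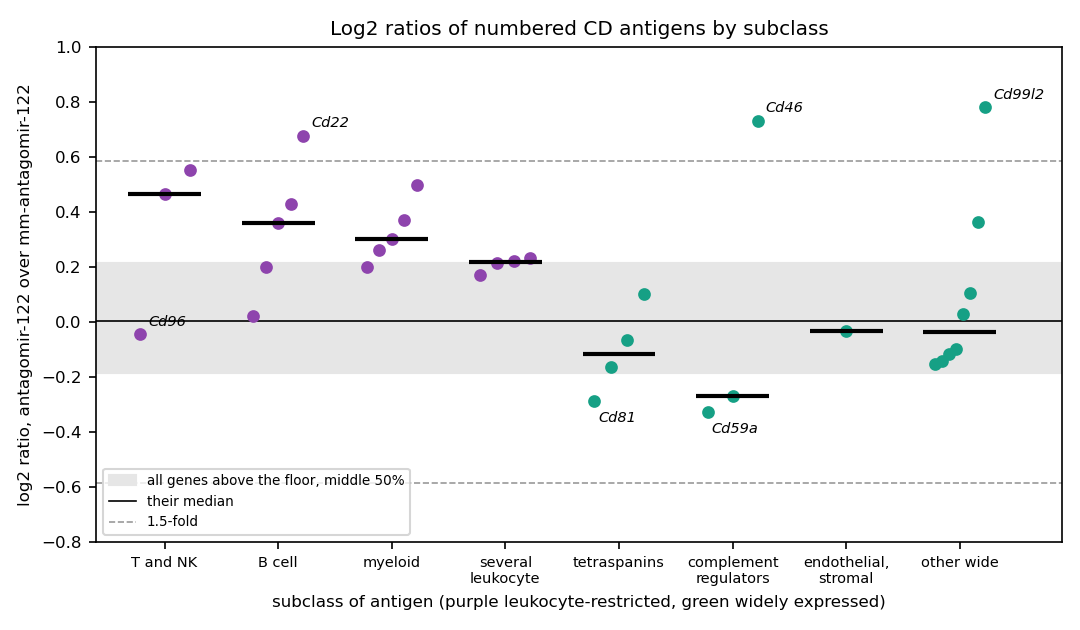
Log2 ratio of antagomir-122 over mm-antagomir-122 for each antigen above the floor, by subclass. Bars are subclass medians, the grey band holds the middle 50% of all genes above the floor (-0.19 to 0.21), and dashed lines mark 1.5-fold. The 4 leukocyte subclasses have medians from 0.22 to 0.47, and the widely expressed subclasses from -0.27 to -0.03 as deposited (from 0.01 to 0.24 when scaled on the hybridization controls).

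Of the widely expressed tetraspanins, which organise other membrane proteins into webs, Cd81 was lowest, at 6166 in the antagomir-122 pool and 7533 in the mm-antagomir-122 pool. Its log2 ratio of -0.29, on 1 probe set, stayed below 0 under each scaling tried, but was only -0.01 when scaled on the hybridization controls. Cd82 had 4407 with antagomir-122 and 4942 with mm-antagomir-122 on its brightest probe set (-0.17), but 602 with antagomir-122 and 493 with mm-antagomir-122 on another (0.29). Cd9 had 614 with antagomir-122 and 643 with mm-antagomir-122, a log2 ratio of -0.07 that turned to 0.21 when scaled on the hybridization controls. Cd151, which binds laminin-receptor integrins, had 1953 with antagomir-122 and 1822 with mm-antagomir-122, and its 4 probe sets above the floor ran from -0.09 to 0.12. Against the 4 of them, with a median of -0.12, the leukocyte tetraspanin Cd53 had 0.21.

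The complement regulators did not go together. Cd59a, which blocks the membrane attack complex, had 2291 in the antagomir-122 pool and 2875 in the mm-antagomir-122 pool, a log2 ratio of -0.33, and its second probe set had 1142 with antagomir-122 and 1821 with mm-antagomir-122 (-0.67). Both of its probe sets stayed on the lower side as deposited, and that of the second passed 1.5-fold. Cd55, which speeds the decay of complement convertases, had 295 with antagomir-122 and 355 with mm-antagomir-122, a log2 ratio of -0.27 that turned to 0.01 when scaled on the hybridization controls. Cd46, a complement cofactor known in mice mainly from testis, had 363 with antagomir-122 and 218 with mm-antagomir-122 on a single suffixed probe set. With the mm-antagomir-122 signal under the floor it was at least 1.52-fold higher.

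Cd99l2, an adhesion molecule used by leukocytes to cross endothelium, had the largest log2 ratio of the 33 as deposited, at 0.78. Its brightest probe set had 1259 in the antagomir-122 pool and 733 in the mm-antagomir-122 pool, 1.72-fold higher. Other probe sets had 361 with antagomir-122 and 400 with mm-antagomir-122 (-0.15) and 310 with antagomir-122 and 293 with mm-antagomir-122 (0.08), so this value rests on 1 of its 3 probe sets above the floor. Cd44, the hyaluronan receptor carried by leukocytes and many other cells, had 1785 with antagomir-122 and 1387 with mm-antagomir-122, 1.29-fold higher, and its 3 probe sets ran from 0.33 to 0.51. Cd24a, a small glycoprotein of progenitors, bile duct cells and lymphocytes, had 391 with antagomir-122 and 364 with mm-antagomir-122, and its 3 probe sets ran from 0.11 to 0.48. Cd44 and Cd24a were thus the widely expressed members with positive ratios on each probe set above the floor as deposited, where several existed. With median centring the brightest probe set of Cd24a turned to -0.03, while that of Cd44 stayed at 0.22.

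The remaining widely expressed antigens were close to equality. Cd302, a C-type lectin receptor, had 14360 in the antagomir-122 pool and 15959 in the mm-antagomir-122 pool. Cd1d1, which presents lipids to NKT cells, had 10741 with antagomir-122 and 10523 with mm-antagomir-122 on a suffixed probe set, and the other probe set had a log2 ratio of -0.09. Cd47, the "do not eat me" signal to macrophages, had 4284 with antagomir-122 and 4726 with mm-antagomir-122, and its 3 probe sets ran from -0.14 to -0.02. The sialomucin Cd164 had 7378 with antagomir-122 and 8012 with mm-antagomir-122, and the adhesion molecule Cd99 had 1463 with antagomir-122 and 1569 with mm-antagomir-122. Cd93, a receptor of endothelial cells and some myeloid cells, had 1508 with antagomir-122 and 1543 with mm-antagomir-122. The log2 ratios of these 6 ran from -0.15 to 0.03 as deposited. Scaled on the hybridization controls, all 6 lay above 0, as did 84.1% of all genes.

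**Figure D3:**
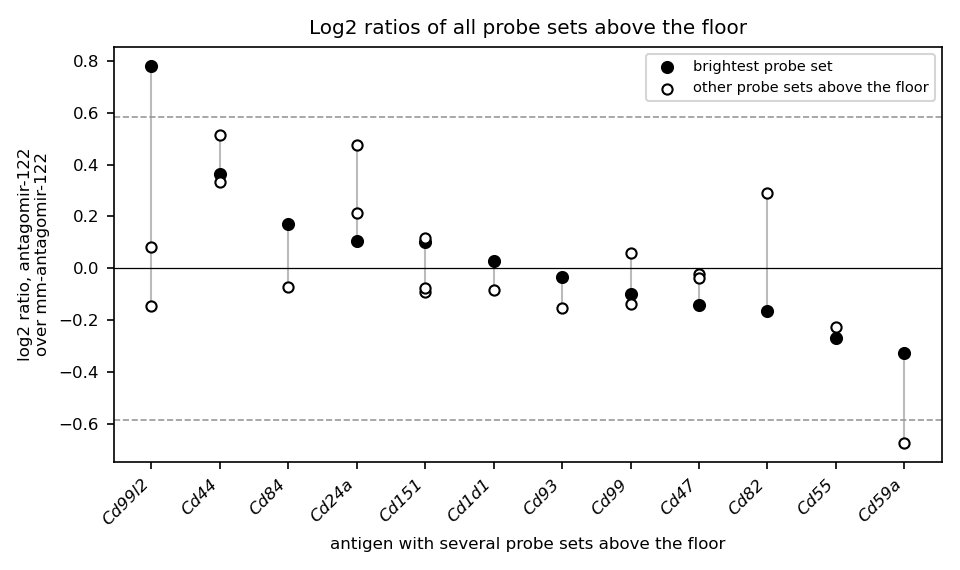
Log2 ratios of every probe set above the floor for the 12 antigens that had several, with the brightest filled and dashed lines at 1.5-fold. Probe sets of Cd99l2 and Cd82 spread widely, those of Cd44 and Cd55 lie together, and 6 of the 12 antigens have probe sets on one side of 0 only.

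Agreement between probe sets could be read for 12 of the 33 antigens, 11 of them widely expressed. Of the 12, 6 had all probe sets above the floor on one side of 0. Cd55 was among them, with negative ratios, but its probe set just under the floor had 253 with antagomir-122 and 221 with mm-antagomir-122 (0.20). The leukocyte-restricted class has little such support, since 16 of its 17 antigens, all but Cd84, had 1 usable probe set.

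Signal strength differed between the classes and was compared with other genes of like signal. Ratios ran higher in dim genes: the median was 0.08 in the 3334 dimmest of the 10003 genes, 0.02 in the 3334 of middle signal and -0.05 in the 3335 brightest. The 10 leukocyte-restricted antigens among the dimmest genes had a median of 0.36. The 5 of middle signal had 0.26, and the 2 among the brightest genes had 0.22. The widely expressed antigens had medians of 0.11 among the dimmest genes (3 antigens), 0.36 at middle signal (2 antigens) and -0.12 among the brightest (11 antigens) as deposited, the last of which is 0.16 when scaled on the hybridization controls. At each signal level the median of the leukocyte-restricted antigens was above that of all genes. Between the classes the order was the opposite at middle signal, where the 2 widely expressed antigens had the higher median.

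**Figure D4:**
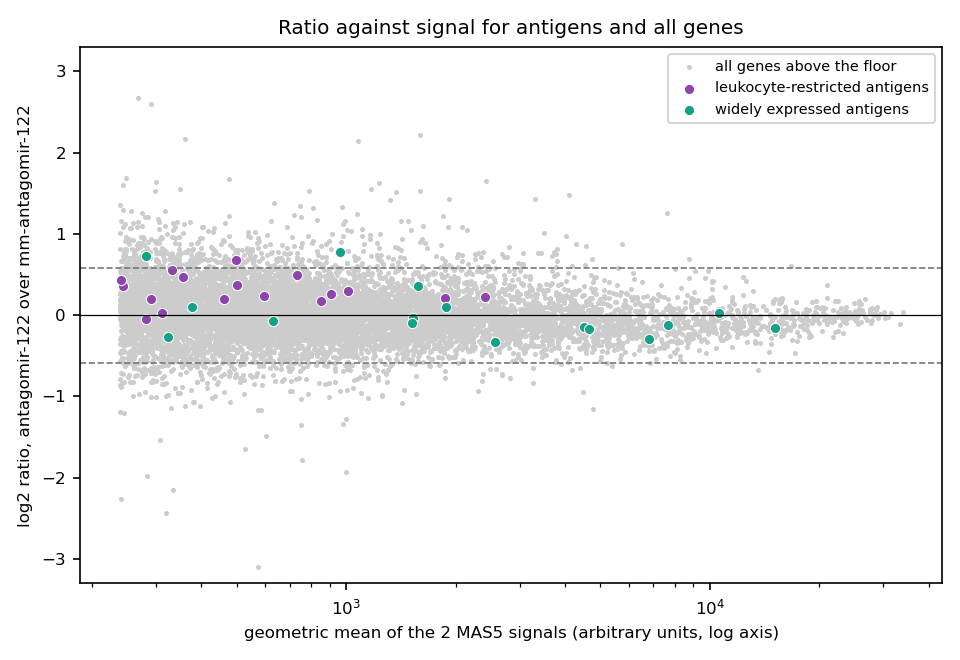
Log2 ratio against the geometric mean of the 2 signals (log axis) for all 10003 genes above the floor in grey, with leukocyte-restricted antigens in purple and widely expressed antigens in green. Purple points lie mostly at low and middle signals and just above 0, and dashed lines mark 1.5-fold.

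Below the floor lay 43 antigens, 34 leukocyte-restricted and 9 widely expressed, and no level is claimed for them. For 39 of them both signals were under the floor. The other 4, named after their values were seen, were above it in the antagomir-122 pool alone. Cd209a, a dendritic cell lectin, had 267 with antagomir-122 and 108 with mm-antagomir-122, so it was at least 1.12-fold higher. Cd207, the lectin of Langerhans cells, had 267 with antagomir-122 and 200 with mm-antagomir-122. The leukocyte tetraspanin Cd37 had 247 with antagomir-122 and 211 with mm-antagomir-122, and the activation antigen Cd83 had 238.3 with antagomir-122 and 234.8 with mm-antagomir-122. Of the 34, 24 had a ratio above 0, where 58.5% of all genes below the floor did. Ratios of dim genes scatter widely: 16 of the 43 were past 1.5-fold in either direction, against 45.3% of all genes below the floor. With no floor, 15 of the 76 antigens were at least 1.5-fold higher and 4 lower, where 15.2% and 9.42% of all genes were.

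Defining T cell antigens were among these dim genes. The chains of the T cell receptor complex Cd3d, Cd3e and Cd3g, named after their values were seen, had signals of 200, 151 and 204 in the antagomir-122 pool and 47.6, 90.3 and 189 in the mm-antagomir-122 pool. All 6 signals were under the floor, so no fold is given. Cd247, a further chain of that complex and also named after its values were seen, went the other way. Its brightest probe set had 111 with antagomir-122 and 134 with mm-antagomir-122, both under the floor. Of the 15 T and NK cell antigens below the floor, 9 had a ratio above 0 and 6 below, where 58.5% of all genes below the floor had one above 0. Cd3g, Cd3d and Cd3e follow each other in the RefSeq gene order. The 7 Cd209 genes also form an unbroken run there, and their signals ran from 29.4 to 267 in the antagomir-122 pool and from 9.4 to 194 in the mm-antagomir-122 pool.

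CD antigens that carry other gene symbols gave a like picture, by lists written with earlier results of these arrays known. Of 17 leukocyte-restricted ones above the floor, 15 had a ratio above 0, with a median of 0.41. Beyond 1.5-fold, 3 were higher and 1 lower, against backgrounds of 5.12% and 2.62%. Itgb7, an integrin chain of gut-homing lymphocytes, was at least 1.56-fold higher. Ms4a1 (CD20 of B cells) was 1.59-fold higher and Selplg, the selectin ligand of leukocytes, 1.58-fold higher. Spn, the leukocyte sialophorin, had 219 in the antagomir-122 pool and 348 in the mm-antagomir-122 pool, at least 1.46-fold lower, but its second probe set, just under the floor, had 307 with antagomir-122 and 181 with mm-antagomir-122. Of 28 widely expressed ones, 12 had a ratio above 0, with a median of -0.05 as deposited. Beyond 1.5-fold, 0 were higher and 4 lower, namely Mcam, Mme, Tek and Icam2, with log2 ratios of -0.86, -0.81, -0.73 and -0.67. Mcam had 177 with antagomir-122, under the floor, and 322 with mm-antagomir-122, so it was at least 1.35-fold lower. A second probe set of Mme had 315 with antagomir-122 and 363 with mm-antagomir-122 (-0.21). Tek and Icam2 are known from endothelial cells, Mcam from vessel walls, and Mme is the peptidase neprilysin. The hybridization-control scaling raises every ratio by 0.27, which leaves these 4 below 0 on their brightest probe sets, but not the second probe set of Mme.

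**Figure D5:**
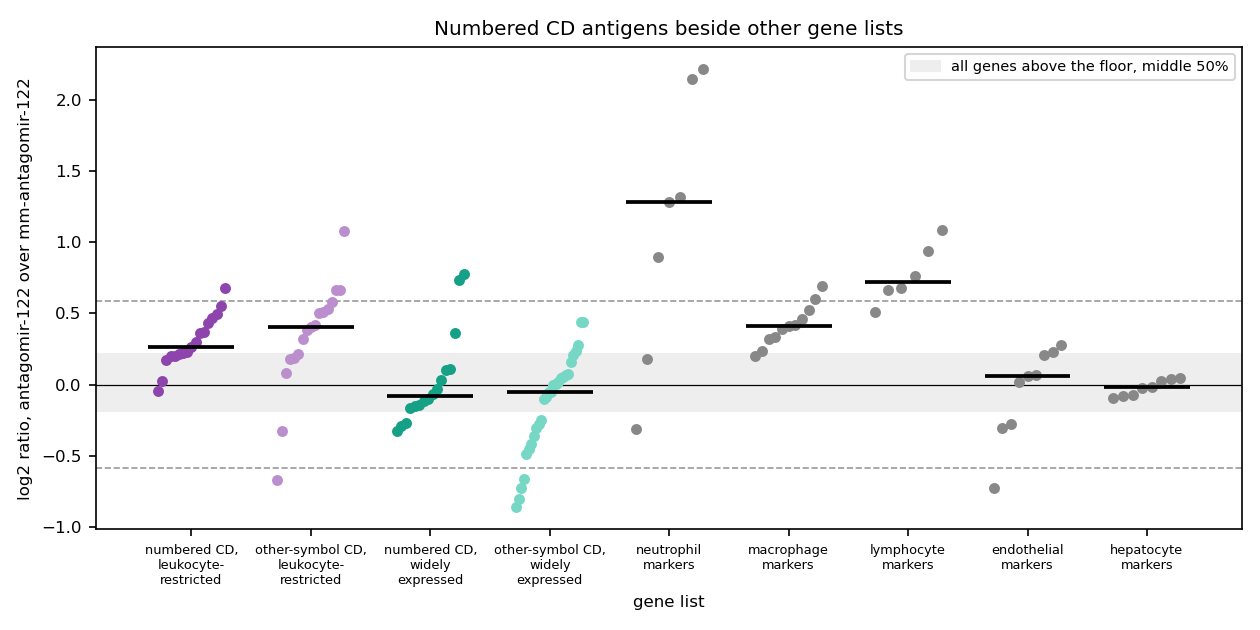
Log2 ratio of every gene above the floor in each list, with black bars for medians, the grey band for the middle 50% of all genes above the floor, and dashed lines at 1.5-fold. Both leukocyte-restricted CD lists (medians 0.26 and 0.41) lie below the lymphocyte (0.72) and neutrophil (1.28) markers, while the macrophage markers have 0.41. The neutrophil median is the ratio of Mpo, whose mm-antagomir-122 signal is under the floor. Both widely expressed lists (-0.08 and -0.05 as deposited) lie near the hepatocyte markers (-0.02). Scaled on the hybridization controls, every ratio is 0.27 higher.

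Markers of whole leukocyte populations moved with the leukocyte-restricted antigens. All 6 measured lymphocyte markers, all 11 Kupffer cell and macrophage markers and 6 of 7 neutrophil markers above the floor had positive ratios, with medians of 0.72, 0.41 and 1.28. Their summed signals were 11890 in the antagomir-122 pool and 6824 in the mm-antagomir-122 pool for lymphocytes, 65691 with antagomir-122 and 47597 with mm-antagomir-122 for macrophages, and 35396 with antagomir-122 and 26624 with mm-antagomir-122 for neutrophils. Lcn2, named after its values were seen, made up 77.4% of the neutrophil sum with antagomir-122 and 90.8% with mm-antagomir-122. It had 27382.5 with antagomir-122 and 24173.2 with mm-antagomir-122. The hepatocyte marker Alb, named beside it after the values were seen, had 26554 and 26970. Which cells gave the Lcn2 signal was not tested, so the neutrophil sum cannot be read as neutrophil RNA alone. The other 6 neutrophil markers summed to 8013 with antagomir-122 and 2451 with mm-antagomir-122. The neutrophil median of 1.28 was the ratio of Mpo, also named after its values were seen. Mpo had 400 with antagomir-122 and 164 with mm-antagomir-122, the latter under the floor, so it was at least 1.68-fold higher. Ltf, likewise named after its values were seen, had 368 with antagomir-122 and 198 with mm-antagomir-122, again under the floor. It was at least 1.54-fold higher. Mpo and Ltf passed the floor through the antagomir-122 signal alone, so their positive ratios add no support to the neutrophil count. The 9 endothelial markers had a median of 0.06 and summed signals of 16279 with antagomir-122 and 16168 with mm-antagomir-122. The 8 hepatocyte markers had a median of -0.02 and the 8 stellate and fibroblast markers 0.08. Of the 5 cholangiocyte markers 1 was above the floor. None of the markers is a numbered CD antigen, but 8 also stand in the lists of CD antigens with other symbols. The part of leukocyte numbers in the ratios of the antigens was not tested.

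The 5 symbols left out by the rule covered both directions. Cd320, the receptor for vitamin B12 bound to transcobalamin, had 795 in the antagomir-122 pool and 412 in the mm-antagomir-122 pool. The macrophage antigens Cd68 and Cd5l had log2 ratios of 0.50 and 0.14, and Cd74, the invariant chain of MHC class II, had 0.23. Cd36, a fatty acid receptor, had -0.42, and its other 2 probe sets above the floor had -0.52 and -0.11.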

How the data were processed

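The deposited values were MAS5 signal intensities per probe set on a linear scale, per the submitters' processing notes, which give no version, and the labels' protocols state that RNA from 3 livers was combined for each array. The authors' values had a 2% trimmed mean of 500.0 on both arrays, so they had been scaled to a common level. No detection calls were used, and the number of arrays limits the precision. Of 45101 probe sets, 34945 had 1 gene in the platform annotation, 932 had several, 9160 had none and 64 were controls. Gene identifiers of 34741 were found in the RefSeq table of GRCm38.p6, which changed 0 symbols. Samples were grouped by title.

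Ratios, floor, classes and counts were computed with Python 3.11.15, pandas 2.3.3 and statsmodels 0.14.6, and the code was tested on simulated data. The antigens, classes and lists were chosen with earlier results of these arrays known. Named genes were the antigens above the floor, the left-out symbols and other CD antigens past 1.5-fold, and others are marked. Alternatives were median centring, quantile normalization, loess correction (span 0.3), scaling on 18 hybridization control probe sets, floors at the 40th and 80th percentiles or none, signals under the floor set to it, a pseudocount of 37.8, other choices of probe set, and thresholds of 1.4-fold and 2-fold. Leaving out Cd46, or Cd24a and Cd44, was chosen after seeing the data. Of 85 listed antigens 9 had no single-gene probe set and were not analysed here. Protein sequences were not used here.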

Additional observations from a re-analysis of the deposited data

How the results depend on the processing

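The difference between the class medians lay between 0.28 and 0.37 on the log2 scale under every alternative except the second brightest probe set, which measured 1 leukocyte-restricted antigen (Cd84). There the leukocyte-restricted median was -0.071, the difference 0.021, and 0 antigens were higher and 1 (Cd59a) lower by 1.5-fold. Median centring moved the median of all genes to -0.14 and those of the leukocyte-restricted and widely expressed antigens to 0.12 and -0.22. Scaling on the hybridization controls moved them to 0.28, 0.54 and 0.19. Both add 1 constant to every ratio, so the class medians relative to all genes (0.26 and -0.09) and their difference cannot change. The hybridization-control scaling put 10 antigens and 16.9% of all genes at least 1.5-fold higher, and 0 antigens and 0.630% lower. Median centring put 2.79% of all genes higher and 6.15% lower. With the floor at the 40th percentile 6 antigens were higher and 1 lower, at the 80th 1 was higher, and with no floor 15 were higher and 4 lower, where 15.2% and 9.42% of all genes were. At 1.4-fold 5 were higher and at 2-fold 0. Cd99l2 turned to -0.15 on its second probe set, with a mean over probe sets of 0.24. Of 355 values of single antigens, 350 moved by less than the single-probe-set SD of 0.28. For many of them this was set in advance. A change of floor leaves a ratio as it is, and both constants are smaller than that SD. The sign was kept under every setting that measured it for 18 of the 33 antigens, among them 14 of the 17 leukocyte-restricted ones. Without Cd46, or without Cd24a and Cd44, the widely expressed median was -0.10 or -0.11. The cause of these shifts was not tested. No paired analysis was possible because each group had 1 array. Dim signals limit what can be read: 43 of 76 antigens were under the floor.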
